A study of Mus musculus with 6 samples.

Results

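The 10 genes described here encode receptors (Notch1, Notch2, Notch4), ligands (Jag1, Jag2, Dll1, Dll4) and transcriptional targets (Hes1, Hey1, Heyl) of the Notch pathway, taken by symbol from the 48587 rows of a table of ribosome-bound RNA from neonatal mouse kidney. The study asked what the forkhead transcription factor Foxp1 does in kidney tubule cells. Ribosomes were recovered with anti-HA beads from 2 groups of animals, and counts per gene were available for 3 Foxp1-deficient libraries (Cdh16Cre; Foxp1 fl/fl; RiboTag) and 3 littermate control libraries (Cdh16Cre; Foxp1 fl/+; RiboTag). Both groups therefore carried the Cre driver and the RiboTag allele, which adds an HA tag to a ribosomal protein in cells where Cre has acted, and the controls had themselves 1 floxed Foxp1 allele. Cdh16 is a cadherin gene of kidney tubule epithelium, so the tag marks cells in which that promoter is or has been active. The sample titles name no input and no untagged pulldown, so the levels below cannot be assigned to tagged cells alone. The Foxp1-deficient libraries also bore a treatment label of chronic acid load and the controls one of vehicle, which no protocol text explained, so genotype and treatment label cannot be told apart. Age was given as neonatal in the protocols, and the labels do not say whether each numbered library came from its own animal. The p-values below therefore compare library with library, a spread that may be technical.

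Notch signalling passes between touching cells. A Jagged or Delta ligand on one cell binds a Notch receptor on its neighbour, the receptor is cut by ADAM proteases and by γ-secretase, and the freed intracellular part joins the DNA-binding protein Rbpj and switches on genes of the Hes and Hey families, which encode repressors. In the mouse collecting duct Notch activity favours principal cells, which reabsorb water and sodium, over intercalated cells, which handle acid and base. Notch4 and Dll4 are best known from blood vessel endothelium, and Hey1 and Heyl are also known from vessel walls.

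The libraries differed strongly in their levels of cell type markers and in how many genes had a count. Genes with a count numbered 18876, 14285 and 22190 in Foxp1-deficient libraries 1, 2 and 3, against 18241, 13885 and 21684 in controls 1, 2 and 3. The part of this difference in the missing counts of the libraries numbered 2 was not tested. Total counts ran from 9710048 to 18958196 in the Foxp1-deficient libraries and from 11264609 to 18206881 in the controls, so 3 counts, the upper limit that a count of 0 allows, stood for 0.158 to 0.309 CPM (counts scaled by the library total). The summed level of the 6 tubule markers was highest in the pair of libraries numbered 3, while single markers of tubule and collecting duct differed in where they were high. Cdh16 had 0.297, 1.96 and 48.5 CPM in Foxp1-deficient libraries 1, 2 and 3, against 0.35, 9.23 and 48.6 CPM in controls 1, 2 and 3. Foxi1, the transcription factor gene that defines intercalated cells, had 2.11 CPM in Foxp1-deficient library 3 and 1.65 CPM in control 3, with no count in the other 4 libraries. Lrp2, encoding the endocytic receptor megalin of proximal tubule, was detected throughout, with 55.2, 97.4 and 203 CPM in Foxp1-deficient libraries 1, 2 and 3, against 34.9, 27.4 and 115 CPM in controls 1, 2 and 3. Among collecting duct and ureteric genes, Gata3 was highest in control 1 (4.62 CPM), Tfcp2l1 had 27.3 CPM in Foxp1-deficient library 1 and 32.9 CPM in Foxp1-deficient library 3, and Wnt9b had 20.6 CPM in Foxp1-deficient library 2 and at most 0.422 CPM elsewhere. The principal cell gene Aqp2, encoding a water channel, had 9.60 CPM in Foxp1-deficient library 3 and no count in Foxp1-deficient libraries 1 and 2, against 0.21, 5.33 and 7.91 CPM in controls 1, 2 and 3. Foxp1 itself had 34.5, 11.3 and 29.2 CPM in Foxp1-deficient libraries 1, 2 and 3, against 48.6, 30.7 and 35.8 CPM in controls 1, 2 and 3 (scaled by TMM). Its log2 fold change was -0.62 (SE 0.49, adjusted p = 0.9998, edgeR quasi-likelihood test), and it was lower in 3 of 3 pairs of equally numbered libraries. With the library number fitted as a block, the log2 fold change of Foxp1 was -0.72 (SE 0.28, adjusted p = 0.853, with 0.0496 before adjustment, edgeR quasi-likelihood test). Counts were summed over the whole gene, also over exons outside the floxed part, and so give a limited check of the genotype.

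The stretches before the start sites of 4 members are shown because these genes stand at the ends of the range described below. Among the members, Notch2 and Jag1 were the most abundant receptor and ligand, and Notch4 and Dll4 had the lowest levels relative to controls. Each line gives the 250 bases before the RefSeq start site (GRCm38.p6), 5′ to 3′ along the gene, with CG dinucleotides in capitals. The stretches lie at chr17:34564045-34564294 (plus strand) for Notch4, chr3:98013288-98013537 (plus strand) for Notch2, chr2:119325534-119325783 (plus strand) for Dll4 and chr2:137116521-137116770 (minus strand) for Jag1.
Notch4: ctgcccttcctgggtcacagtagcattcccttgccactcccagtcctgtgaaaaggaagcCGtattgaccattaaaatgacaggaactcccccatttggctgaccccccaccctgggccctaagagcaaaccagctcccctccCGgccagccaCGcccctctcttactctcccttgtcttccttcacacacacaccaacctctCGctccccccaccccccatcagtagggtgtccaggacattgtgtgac
Notch2: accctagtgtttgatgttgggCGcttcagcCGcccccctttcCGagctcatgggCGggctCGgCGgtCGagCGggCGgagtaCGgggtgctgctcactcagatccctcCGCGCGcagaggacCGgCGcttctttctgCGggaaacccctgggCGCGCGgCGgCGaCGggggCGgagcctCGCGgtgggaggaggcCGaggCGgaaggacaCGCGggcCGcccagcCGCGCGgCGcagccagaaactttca
Dll4: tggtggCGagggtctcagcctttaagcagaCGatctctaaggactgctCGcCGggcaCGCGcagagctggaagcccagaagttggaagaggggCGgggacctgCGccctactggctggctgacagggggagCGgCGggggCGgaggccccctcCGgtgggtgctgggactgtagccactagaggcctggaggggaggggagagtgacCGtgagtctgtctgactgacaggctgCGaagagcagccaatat
Jag1: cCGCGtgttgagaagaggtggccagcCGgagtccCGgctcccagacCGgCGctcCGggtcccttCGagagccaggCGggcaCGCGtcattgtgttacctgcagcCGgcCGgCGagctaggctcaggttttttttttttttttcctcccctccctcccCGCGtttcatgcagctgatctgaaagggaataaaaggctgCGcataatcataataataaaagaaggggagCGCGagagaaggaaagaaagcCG
Notch4 had 4 CG dinucleotides in its stretch, Notch2 had 34, Dll4 had 14 and Jag1 had 20, where the median over all 32851 RefSeq stretches of this length was 6 (quartiles 2 and 16). The Rbpj motif TGGGAA, the forkhead motif TGTTTAC and the ETS motif CCGGAAG, searched on both strands, of which none contains another, were found in 0 of the 8 stretches of the 7 members that had one, among which Dll1 had 2. They occur in 21.6%, 3.17% and 6.91% of all such stretches, so 0 in 8 says only that these letters were not in these windows. The start site used for Notch1 lay 12841 bases from the 5′ end of the counted gene, and 1 of the 2 for Dll1 lay 1049 bases from it. These stretches need not be those before the start in use.

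On a scale per gene length (FPKM, the TMM-scaled CPM divided by the deposited exon length in kilobases), Hes1 was the most abundant member and the Delta ligands were the least. Hes1, which encodes a repressor directly induced by Notch, averaged 17.3 ± 0.95 FPKM over the 6 libraries (SD), and its lowest library lay above the highest library of every other member. Jag1, the ligand gene mutated in Alagille syndrome in humans, averaged 6.56 ± 3.91 FPKM and Notch2, its receptor in the developing nephron, 5.09 ± 1.60 FPKM. Jag1 was above Notch2 in 4 of 6 libraries, so this pair of neighbours did not differ beyond their spread. Notch2 was above Hey1 in 6 of 6 libraries, although the ranges of both genes over all libraries overlapped. Below them came Hey1 with 1.49 ± 1.04, Heyl with 0.751 ± 0.732, Notch1 with 0.659 ± 0.29, Jag2 with 0.551 ± 0.387, Notch4 with 0.336 ± 0.276, Dll4 with 0.238 ± 0.394 and Dll1 with 0.0445 ± 0.0532 FPKM. Each of these lower genes overlapped in range with the next one down, and Heyl was above Notch1 in 3 of 6 libraries.

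**Figure D1:**
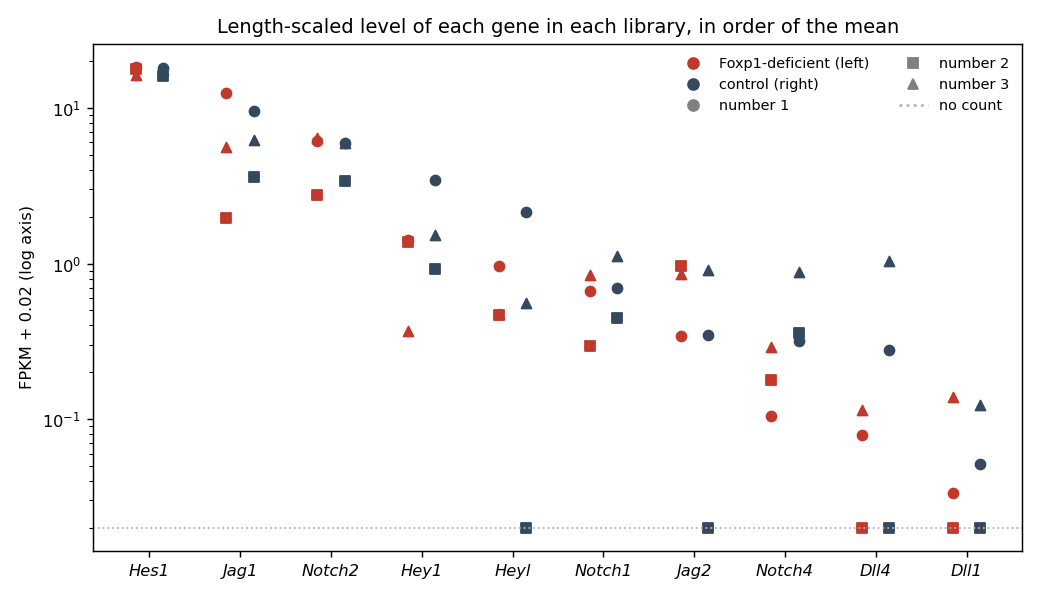
FPKM plus an offset of 0.02 on a log axis for each of the 10 genes, ordered by their mean over 6 libraries, with Foxp1-deficient libraries left of controls and the symbol giving the library number; the dotted line marks no count. Hes1 lies highest in a narrow band that ends at 18.3 FPKM, and Dll4 and Dll1 reach the dotted line in both libraries numbered 2.

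Within a library, Notch2 took most of the signal of the member receptors and Jag1 most of that of the member ligands. Notch2 made up 89.3%, 86.3% and 85.5% of the summed FPKM of the 3 receptors in Foxp1-deficient libraries 1, 2 and 3, against 85.9%, 81.5% and 75.1% in controls 1, 2 and 3. The mean share was 87.0 ± 2.02% in Foxp1-deficient libraries and 80.8 ± 5.45% in controls (SD, n = 3 each), a difference of 6.20 percentage points that was within the spread between libraries (two-sided exact permutation p = 0.2, where 3 against 3 allows no p below 0.1). Without control 3 the difference was 3.33 points, and with Notch4 left out of the sum it was 2.36 points. Jag1 made up 67.4% to 97.0% of the ligand signal in Foxp1-deficient libraries and 75.4% to 100% in controls. The Delta ligands together made up 0.556%, 0% and 3.24% in Foxp1-deficient libraries 1, 2 and 3, against 2.84%, 0% and 13.7% in controls 1, 2 and 3 (difference of means -4.26 points, two-sided exact permutation p = 0.7). Most of that difference was in control 3, without which it was -0.155 points, and without control 2 it was -7.02 points. Both sums leave out genes outside the members, so these are not shares of all receptors or ligands. The receptor gene Notch3 had 1.61, 0.206 and 1.27 FPKM in Foxp1-deficient libraries 1, 2 and 3. In controls 1, 2 and 3 it had 1.98, 0.0782 and 0.976 FPKM. Dlk1, a further ligand gene, ran from 20.4 FPKM in control 1 to 72.9 FPKM in control 3.

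No member passed the test between genotypes. Of the 10 members, 8 passed the low-count filter and were tested, and 0 of these 8 were called at an adjusted p under 0.05, with 0 at an unadjusted p under 0.05. Over all 14311 genes the same test called 0 (0% of those tested), with 103 at an unadjusted p under 0.05 (0.72%), while DESeq2 called 6 genes (0.0419%). With the library number as a block, edgeR called 0 genes and had 5.32% at an unadjusted p under 0.05, DESeq2 called 1.19% and limma-voom 0.0559%, and edgeR without the libraries numbered 2 called 0.196%. In each of these, 0 members were called, and DESeq2 with the block gave no adjusted p for Notch4, Jag2 and Heyl. Among the 8 tested members 4 were higher and 4 lower, and their median was -0.17 on the log2 fold scale, beside 53.6% higher, 46.4% lower and a median of 0.03 over all genes. In simulated data with the spread between these libraries, 0% of genes given a 4-fold change were recovered by edgeR, and 45% once the library number was a block, so a missed threshold does not show that a gene was unchanged.

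**Figure D2:**
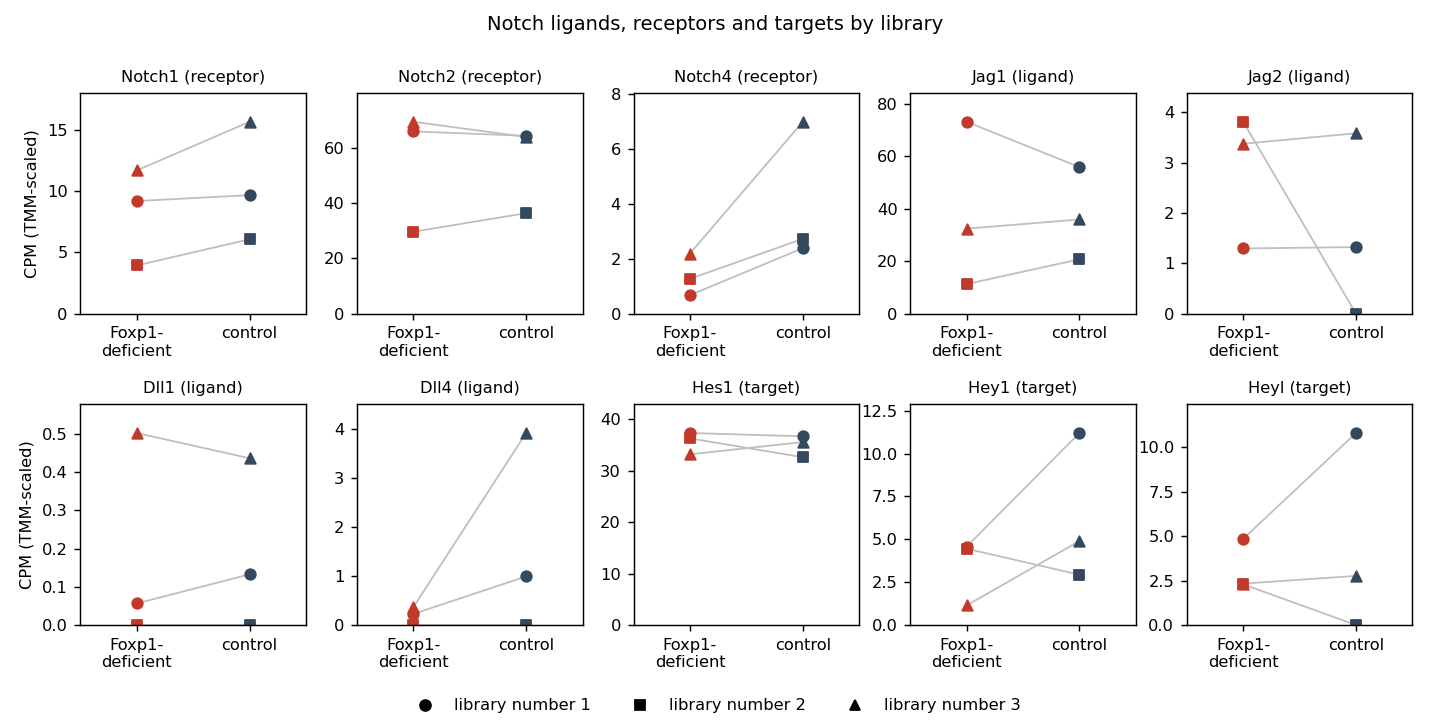
TMM-scaled CPM (linear axis, starting at 0) of each member in the 3 Foxp1-deficient libraries (left, red) and 3 controls (right, blue), with grey lines joining libraries of the same number. Groups do not overlap for Notch4, with 0.677 to 2.19 CPM in Foxp1-deficient libraries against 2.39 to 6.98 CPM in controls, and they overlap for the other 9 genes.

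Among the receptors, Notch4 (chromosome 17, 34564268 to 34588503, mm10, plus strand) was lower in each Foxp1-deficient library than in any control after TMM scaling. It had 0.677, 1.27 and 2.19 CPM in Foxp1-deficient libraries 1, 2 and 3, against 2.39, 2.72 and 6.98 CPM in controls 1, 2 and 3 (TMM-scaled here and for all members below). These rest on 12, 10 and 48 counts in Foxp1-deficient libraries and 36, 26 and 144 counts in controls. By library total alone the groups overlapped, with 2.53 CPM in Foxp1-deficient library 3 against 2.52 and 2.31 CPM in controls 1 and 2. The TMM-scaled means were 1.38 ± 0.763 CPM in Foxp1-deficient libraries and 4.03 ± 2.56 CPM in controls (SD, n = 3 each). The log2 fold change was -1.54 (SE 0.95), and it did not pass (adjusted p = 0.9998, with 0.146 before adjustment over all genes, edgeR quasi-likelihood test). With the library number as a block it was -1.53 (SE 0.67) and did not pass either (adjusted p = 0.853, with 0.0705 before adjustment, edgeR quasi-likelihood test). On the TMM scale, groups did not overlap in this direction for 2.11% of all genes tested and in the other for 2.64%, and for 1 of the 8 tested members. Its lowest adjusted p among the 18 alternatives was 0.282 (edgeR with the block, without the libraries numbered 2), DESeq2 with the block gave none, and its log2 fold change was -0.88 without control 3.

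Leukocyte genes and some endothelial genes were also lower in Foxp1-deficient libraries, without passing the test, and their part in the Notch4 values was not tested. Of the 8 endothelial markers, 5 were lower and 3 higher in Foxp1-deficient libraries, and 0 passed the test. Their summed level ran from 119 to 186 CPM in Foxp1-deficient libraries and from 71.6 to 177 CPM in controls, most of it from Tek, and without Tek from 13.6 to 50.1 CPM against 22.7 to 79.8 CPM. Tek, encoding the angiopoietin receptor, was the 1 endothelial marker of 8 whose groups did not overlap after TMM scaling. It was higher in Foxp1-deficient libraries, a direction in which groups did not overlap for 2.64% of all genes tested. Tek had 119 ± 7.24 CPM against 76.5 ± 27.0 CPM in controls (log2 fold change 0.64, SE 0.37, adjusted p = 0.9998, edgeR quasi-likelihood test). By library total its groups overlapped, with 91.5 CPM in Foxp1-deficient library 2 against 113 CPM in control 1. Pecam1, encoding the endothelial adhesion molecule CD31, averaged 4.15 ± 4.71 CPM in Foxp1-deficient libraries and 12.7 ± 6.99 CPM in controls (SD, n = 3 each). Cdh5, encoding VE-cadherin, had no count in control 2, and Tie1 and Emcn had none in either library numbered 2. The 4 leukocyte markers were all lower in the Foxp1-deficient library of all 3 pairs, as were 16% of all genes tested. Their sums were 37.3 to 204 CPM in Foxp1-deficient libraries and 123 to 380 CPM in controls. By the root mean square difference of centred log2 CPM over 6 libraries, the genes nearest to Notch4 were Fmnl1 (0.299) and Lcp1 (0.333), which encode actin-regulating proteins of leukocytes. In these bulk pulldowns, fewer cells of a type and less RNA per cell cannot be told apart.

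**Figure D3:**
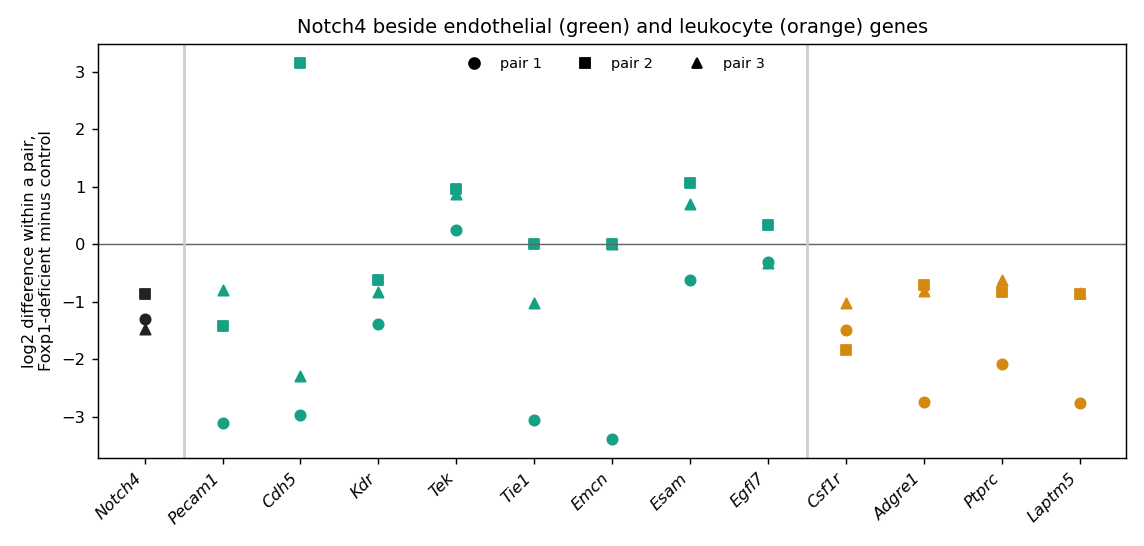
Difference of log2 (TMM-scaled CPM + 0.5) between the Foxp1-deficient and the control library of the same number, for Notch4, 8 endothelial genes and 4 leukocyte genes, with 1 symbol per pair. Notch4 lies at -1.29, -0.86 and -1.47 in pairs 1, 2 and 3, the leukocyte genes lie below 0 in every pair, and the endothelial genes spread on both sides.

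Notch2 (chromosome 3, 98013527 to 98150361) had nearly the same mean in both genotypes, with a large part of its variation between library numbers. It had 65.9, 29.6 and 69.4 CPM in Foxp1-deficient libraries 1, 2 and 3, against 64.3, 36.4 and 63.9 CPM in controls 1, 2 and 3. The groups overlapped, and both libraries numbered 2 were the low ones. The library number accounted for 96.4% of the sum of squares of its log2 CPM and genotype for 0.231%. The log2 fold change was 0.0037 (SE 0.45), or -0.04 (SE 0.16) with the library number as a block (adjusted p = 0.9998 and 0.943, edgeR quasi-likelihood test).

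Notch1 (chromosome 2, 26457903 to 26516663, minus strand) had 9.20, 3.94 and 11.7 CPM in Foxp1-deficient libraries 1, 2 and 3, against 9.68, 6.08 and 15.7 CPM in controls 1, 2 and 3. The groups overlapped, while the Foxp1-deficient library was the lower one in all 3 pairs, by log2 differences of -0.07, -0.57 and -0.41. Over all genes tested, 16% were lower in all 3 pairs and 16.5% higher, and among the 8 tested members Notch1 and Notch4 were lower in all 3 and 0 were higher. The log2 fold change of Notch1 was -0.34 (SE 0.63, adjusted p = 0.9998, edgeR quasi-likelihood test), and without control 3 it was 0.08. Notch1 and Notch2 were the closest pair of members in their pattern over libraries, with a root mean square difference of 0.265 in centred log2 CPM. The genes nearest to Notch1 were Runx1 (0.113), encoding a transcription factor of blood cell development, and Zfp598 (0.13), and those nearest to Notch2 were Ccdc93 (0.0632) and Nfkbia (0.0661), which encodes an inhibitor of NF-κB.

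Among the ligands, Jag1 (chromosome 2, 137081456 to 137116644, minus strand) varied 6.46-fold over libraries on the FPKM scale without a difference between genotypes beyond that spread. It had 73.1, 11.3 and 32.4 CPM in Foxp1-deficient libraries 1, 2 and 3, against 55.9, 20.7 and 35.9 CPM in controls 1, 2 and 3. Libraries numbered 1 were the highest of each genotype and libraries numbered 2 the lowest, and the groups overlapped. The log2 fold change was 0.06 (SE 0.69, adjusted p = 0.9998, edgeR quasi-likelihood test), and it turned to -0.19 (SE 0.28) with the library number as a block and to -0.79 without Foxp1-deficient library 1. Jag1 had 1296 counts in Foxp1-deficient library 1 and 843 in control 1, where Cdh16 was at 0.297 CPM in the Foxp1-deficient library and 0.35 CPM in the control. Its nearest genes over libraries were Pik3cb (0.038), encoding a catalytic subunit of PI3-kinase, and Abca5 (0.0867), encoding a lipid transporter.

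Jag2 (chromosome 12, 112908590 to 112929495, minus strand) had 1.30, 3.82 and 3.38 CPM in Foxp1-deficient libraries 1, 2 and 3, against 1.33, 0 and 3.59 CPM in controls 1, 2 and 3. In pairs 1 and 3 the log2 differences were -0.02 and -0.08, so its fold change of 0.77 on the log2 scale (SE 1.46, adjusted p = 0.9998, edgeR quasi-likelihood test) came from the pair numbered 2. Without the libraries numbered 2 it was -0.07. Ddt (0.153) and Pon2 (0.213) were nearest to it in pattern.

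The Delta ligands did not pass the low-count filter, and neither had a count in the libraries numbered 2. Dll4 (chromosome 2, 119325784 to 119335962) had 4, 0 and 8 counts in Foxp1-deficient libraries 1, 2 and 3, against 15, 0 and 81 counts in controls 1, 2 and 3. Scaled, these were 0.226, 0 and 0.365 CPM in Foxp1-deficient libraries, against 0.994, 0 and 3.93 CPM in controls. The Foxp1-deficient library was lower in the pairs numbered 1 and 3, and neither library numbered 2 had a count, which allows up to 0.309 CPM in Foxp1-deficient library 2 and 0.266 CPM in control 2. With the libraries numbered 2 left out, Dll4 passed the filter only through the controls, the group where it was higher. Its log2 fold change there was -3.02 (SE 1.02), and for that reason no p is read from this fit. Without a filter, over all libraries, the log2 fold change of Dll4 was -2.96 (SE 2.17, adjusted p = 0.9998, with 0.187 before adjustment, edgeR quasi-likelihood test). Dll1 (chromosome 17, 15367354 to 15376872, minus strand) had 1, 0 and 11 counts in Foxp1-deficient libraries 1, 2 and 3, against 2, 0 and 9 counts in controls 1, 2 and 3. The groups overlapped, and the main test left Dll1 out at these counts. Without a filter its log2 fold change was -0.0068 (SE 2.44, adjusted p = 0.9998, edgeR quasi-likelihood test).

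Among the targets, Hes1 (chromosome 16, 30064384 to 30067796, plus strand) varied least. It had 37.3, 36.2 and 33.2 CPM in Foxp1-deficient libraries 1, 2 and 3, against 36.6, 32.6 and 35.5 CPM in controls 1, 2 and 3. The groups overlapped, and the highest library was 1.14 times the lowest, against 2.34 times for Notch2, 3.97 for Notch1, 9.81 for Hey1 and 10.3 for Notch4 on the FPKM scale. The means were 35.6 ± 2.15 CPM in Foxp1-deficient libraries and 34.9 ± 2.10 CPM in controls (SD, n = 3 each). The log2 fold change was 0.03 (SE 0.32, adjusted p = 0.9998, edgeR quasi-likelihood test), or 0.02 (SE 0.17) with the library number as a block. On the TMM scale this even level held in libraries whose Cdh16 ran from 0.297 to 48.6 CPM by library total. Scaled by library total alone, Hes1 was less even, from 27.6 CPM in control 2 to 40.3 CPM in control 3. Nearest to Hes1 in pattern were Rab12 (0.0358), encoding a small GTPase of membrane traffic, and Mlec (0.0368), encoding a protein of the endoplasmic reticulum.

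Hey1 (chromosome 3, 8663359 to 8667256, minus strand), a bHLH repressor gene of vessels, had 4.57, 4.45 and 1.14 CPM in Foxp1-deficient libraries 1, 2 and 3, against 11.2, 2.93 and 4.90 CPM in controls 1, 2 and 3. In pairs 1 and 3 the Foxp1-deficient library was the lower one, by -1.21 and -1.72 on the log2 scale, and in pair 2 the higher one, by 0.53, so the groups overlapped. The log2 fold change was -0.91 (SE 0.87, adjusted p = 0.9998, edgeR quasi-likelihood test) and ranged from -1.26 to -0.22 with each library left out in turn, the smallest being without control 1. Without the libraries numbered 2 it was -1.49, and -1.66 with a block in addition (adjusted p = 0.226, edgeR quasi-likelihood test). Sh2d3c (0.262) and Hic2 (0.423) were the nearest genes. Of 4 markers of arterial endothelium, 3 were tested, with 1 higher and 2 lower. Without Efnb2, which held most of the sum, they had 1.24 to 4.33 CPM in Foxp1-deficient libraries and 2.40 to 15.9 CPM in controls, and their part in the Hey1 values was not tested.

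Heyl (chromosome 4, 123233556 to 123249875, plus strand), a relative of Hey1 known from vascular smooth muscle, had 4.85, 2.29 and 2.33 CPM in Foxp1-deficient libraries 1, 2 and 3, against 10.8, 0 and 2.76 CPM in controls 1, 2 and 3. The groups overlapped, and control 2, without a count, and control 1 were its extremes. Its log2 fold change changed sign with the fit, at -0.52 (SE 1.49) without a block, 0.56 (SE 1.51) with one and 1.17 without control 1 (adjusted p = 0.9998, 0.918 and 1.0, edgeR quasi-likelihood test). Smooth muscle genes were abundant beside it: the 7 smooth muscle and pericyte markers summed to 5627 to 10055 CPM in Foxp1-deficient libraries and 10069 to 17016 CPM in controls, with 5 lower and 2 higher, and their part in the Heyl values was not tested. Pip5k1b (0.237) and Tubg2 (0.251) were nearest to Heyl in pattern.

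**Figure D4:**
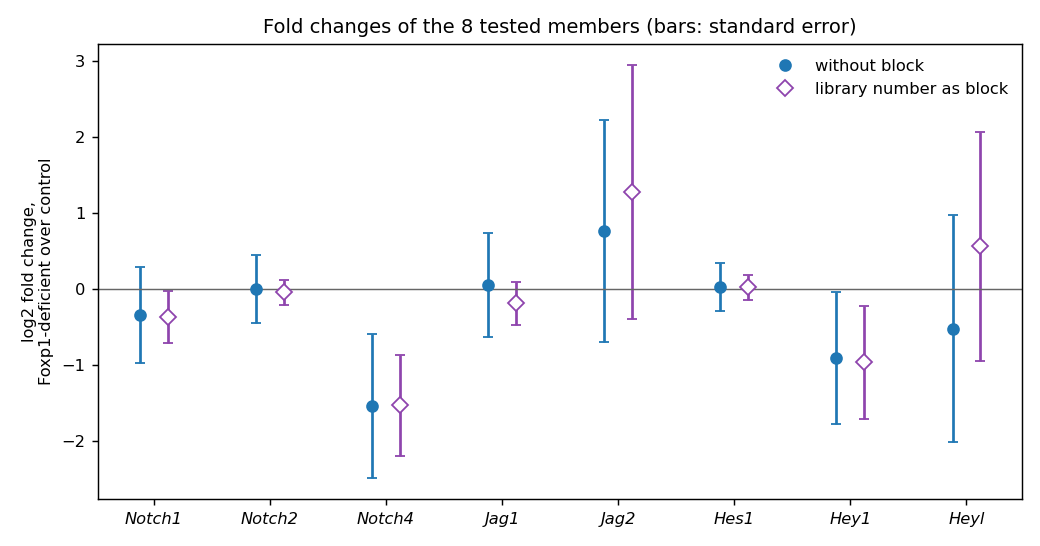
Log2 fold change, Foxp1-deficient over control, with its standard error for the 8 tested members in edgeR fits without a block (filled circles) and with the library number as a block (open diamonds). Notch4 lies lowest, at -1.54 and -1.53, Hes1 and Notch2 lie near 0, and Heyl changes sign between the fits.

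Across the members, the library number carried more of the variation than genotype in 7 of the 8 tested genes. Its share of the sum of squares ran from 32.2% for Jag2 to 96.4% for Notch2. Notch4 was the exception, with 43.1% for library number and 54.4% for genotype. Library number has more levels than genotype, so it takes the larger share more often even where neither has an effect. It also took the larger share in 38 of the 42 further pathway genes tested, and the count over all genes was not computed. In the pair of libraries numbered 3, where the tubule markers summed highest, Notch2 had 69.4 CPM in the Foxp1-deficient library against 63.9 CPM in the control, and Jag1 had 32.4 against 35.9 CPM. That pair has no replicate of its own, and its differences carry no test.

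The rest of the pathway was measured through 48 further genes, of which 42 passed the low-count filter, and none passed the test between genotypes. Of the 42, 27 were higher in Foxp1-deficient libraries and 15 were lower, and their median was 0.07 on the log2 fold scale, beside 0.03 over all genes. The count called was 0 (against 0% of all genes), with 0 at an unadjusted p under 0.05 without a block and 3 with one, where the shares over all genes were 0.72% and 5.32%. The 3 lower genes of lowest p were Neurl1b, Ctbp1 and Mfng, and Poglut1 and Hes6 were among the higher ones of lowest p. Neurl1b, encoding a ubiquitin ligase that acts on ligands, averaged 10.8 ± 2.91 CPM in Foxp1-deficient libraries and 18.8 ± 5.02 CPM in controls (SD, n = 3 each). It was the 1 gene of the 42 whose groups did not overlap, with a log2 fold change of -0.81 (SE 0.46, adjusted p = 0.9998, edgeR quasi-likelihood test) and log2 differences of -0.81, -0.83 and -0.70 in pairs 1, 2 and 3. Over all genes tested, groups did not overlap for 2.11% in this direction and 2.64% in the other, so 1 of 42 is near the background.

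The ligand ubiquitin ligases had 3 genes higher and 1 lower, and the sugar transferases, which modify Notch, 3 higher and 2 lower. Of the transferases, Poglut1 averaged 67.7 ± 28.2 CPM in Foxp1-deficient libraries and 50.5 ± 9.92 CPM in controls, and Mfng 0.641 ± 0.717 against 1.86 ± 1.80 CPM (SD, n = 3 each). Of the 8 protease genes 5 were higher and 3 lower, and their median was 0.04 on the log2 fold scale. The nuclear factors, with Rbpj and its coactivators, had 3 higher and 3 lower, and the corepressors 4 higher and 3 lower. Ctbp1, a corepressor gene, averaged 189 ± 46.8 CPM in Foxp1-deficient libraries and 232.0 ± 34.6 CPM in controls. The negative regulators had 6 higher and 1 lower, and a median of 0.26 on the log2 fold scale, or 0.10 with the library number as a block. Of the 5 further targets 2 could be tested, among them Hes6 with 40.6 ± 41.2 CPM in Foxp1-deficient libraries and 24.5 ± 7.71 CPM in controls, and Hes5, named after its values were seen, had 0 counts in all 6 libraries. Among 5 further receptor and ligand genes, 3 were tested, with 2 higher and 1 lower.

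**Figure D5:**
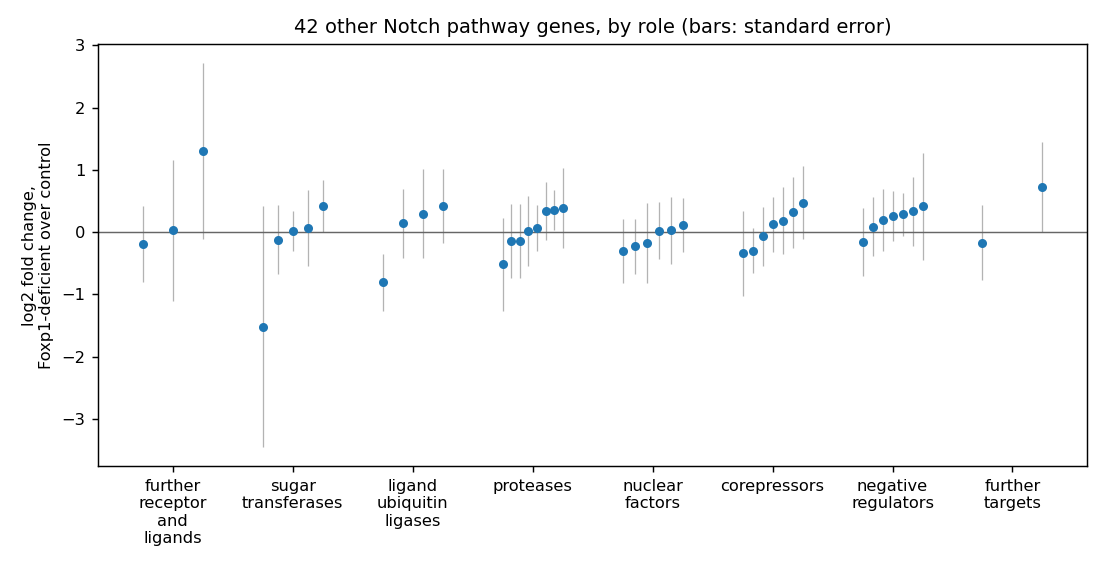
Log2 fold change, Foxp1-deficient over control, with its standard error for the 42 tested further pathway genes, grouped by role and sorted within each group. Mfng lies lowest at -1.52 with a standard error of 1.93, and 0 of the 42 passed the test.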

How the data were processed

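Ribosome-bound RNA of 6 mouse kidney pulldowns was analysed. The deposited values are raw counts, 1 row for each gene symbol. Per the file headers, the authors ran featureCounts 1.5.1 on read pairs over exons of an mm10 annotation (version 86). The command names no strand option and none for multi-mapping reads, so antisense neighbours could not be separated, and 9 rows overlap 6 of the members with at most 32 counts each over all libraries. Per the submitters' processing notes, STAR, Trimmomatic, SAMtools, FastQC, DESeq2 and deepTools were used, with no version listed. How each was set is not stated. The exon length per gene, also deposited by the authors, was used to compute FPKM.

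The test between genotypes used edgeR 4.0.16 under R 4.3.3, with TMM factors, filterByExpr, quasi-likelihood F test, Benjamini-Hochberg adjustment over 14311 genes at 0.05, two-sided. Marker sums and Cdh16, Foxi1, Lrp2, Gata3, Tfcp2l1, Wnt9b and Aqp2 use CPM by library total, and the members, Foxp1 and averages of single genes use TMM-scaled CPM. Log2 values per library add 0.5 CPM. Shares were compared with exact permutation tests (SciPy 1.17.1), and figures were drawn with matplotlib 3.10.9. Limits from 0 counts cover counting error only, because no molecular identifiers are named in the labels.

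The members, the 48 further pathway genes and the 12 marker lists were chosen with earlier results of these data known. Text names all members, the 3 higher and 3 lower pathway genes of lowest p (1 of the higher ones is not reported here), and the 2 genes nearest to each tested member in centred log2 CPM, predicted genes left out. Groups and replicate numbers came from sample titles. Deviations from group means of equally numbered libraries correlated across genes at r = 0.661, 0.628 and 0.682, against at most 0.0782 for other pairings. Equal numbers were therefore treated as pairs in the within-pair differences and in the fits with a block. This rests on the data, since the labels do not state it. Centring on group means lowers the r of other pairings once that of equal numbers is high. The contrast between them is thus partly built in. The main test had no block and so left the pairing of equal numbers out.

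The procedure was tested on simulated counts for 13614 genes with the real means, sizes and pair structure, 100 changed 2-fold and 100 changed 4-fold. edgeR without a block recovered 0% of both, and with a block 1% and 45%. DESeq2 1.42.0 recovered 1% and 22%, or 21% and 71% with a block, where 82 of its 174 calls were false. The changed genes were drawn only from those above a minimum mean count, so these rates need not hold for members with few counts. Alternatives were RLE, upper quartile or no factors, no filter or 1 CPM in 3 libraries, DESeq2, limma-voom (limma 3.58.1), blocks on library number, the libraries numbered 2 left out, and each library left out in turn.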

Additional observations from a re-analysis of the deposited data

How the results depend on the processing

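Of 144 values of the 8 tested members over 18 alternatives, 0 passed the threshold (lowest adjusted p 0.226) and 24 changed sign, none of them for Notch4 or Hey1. Notch2 was -0.00078 with RLE factors, -0.033 with upper quartile factors, -0.00048 with DESeq2, -0.042 with edgeR and the replicate block and -0.040 with DESeq2 and the block. Hes1 was -0.0055 with upper quartile factors, -0.045 with limma-voom and quality weights, -0.030 without the libraries numbered 2 and -0.033 with the block in addition. Jag1 was -0.19 with the block in both edgeR and DESeq2, and Heyl 0.56 and 0.70. Jag2 was -0.065 without the libraries numbered 2, or -0.055 with the block in addition. With each library left out in turn, log2 fold changes ran from -0.68 to 0.080 for Notch1, -0.22 to 0.31 for Notch2, -2.07 to -0.88 for Notch4, -0.79 to 0.50 for Jag1, 0.19 to 2.05 for Jag2, -0.029 to 0.063 for Hes1, -1.26 to -0.22 for Hey1 and -1.10 to 1.17 for Heyl. Those fits hold fewer libraries, and the cause of the other changes was not tested. The median of the further pathway genes was -0.020 with limma-voom and quality weights, -0.033 without the libraries numbered 2, -0.015 with the block in addition, and -0.035 to 0.14 with each library left out, and 0 of these genes were called in any setting. Genes called over the whole table numbered 6 with DESeq2, 171 with DESeq2 and the replicate block, 8 with limma-voom and the block, 30 with edgeR and the block without the libraries numbered 2, and 0 with each library left out. The block changed no call of a member. The share differences kept their sign, from 3.33 to 8.75 points for Notch2 and from -7.02 to -0.155 points for the Delta ligands with each library left out. Within pairs the sign-flip p for the shares was 0.25 and 0.5 (exact, replicate block), where 3 pairs allow none below 0.25. Dll1 and Dll4 rest on at most 11 and 81 counts in a library, which limits any statement about them.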

Other observations

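Lists of other kidney cell types set the background for the Notch genes, and 0 of their tested members passed (edgeR quasi-likelihood test, adjusted p = 0.9998 throughout). Mesothelial genes summed to 2018 to 3560 CPM in Foxp1-deficient libraries and 1567 to 1624 CPM in controls, with 3 of 4 higher. Stromal genes summed to 2499 to 15376 CPM in Foxp1-deficient libraries and 4061 to 14954 CPM in controls, with 4 of 5 higher. Podocyte genes summed to 185 to 404 CPM in Foxp1-deficient libraries and 167 to 446 CPM in controls, with 4 of 4 lower, although Nphs1, which defines podocytes, reached at most 1.21 CPM. Tubule genes summed to 58.8, 102 and 576 CPM in Foxp1-deficient libraries 1, 2 and 3, against 35.2, 47.6 and 451 CPM in controls 1, 2 and 3. Without Lrp2, the most abundant of them, the sums were 3.63, 5.05 and 373 CPM against 0.35, 20.2 and 336 CPM, so pair 2 went the other way.

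Principal cell genes summed to 2.97, 0 and 31.1 CPM in Foxp1-deficient libraries 1, 2 and 3, against 7.0, 8.26 and 24.2 CPM in controls 1, 2 and 3. Intercalated cell genes other than Slc4a1, an anion exchanger gene also of red blood cells, summed to 1.01, 0.824 and 16.6 CPM in Foxp1-deficient libraries, against 1.54, 4.88 and 13.6 CPM in controls. The general collecting duct and ureteric list summed to 27.3 to 73.8 CPM in Foxp1-deficient libraries and 1.51 to 61.6 CPM in controls and nephron progenitor genes to 1.43 to 5.49 CPM in Foxp1-deficient libraries and 1.51 to 5.82 CPM in controls.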
